A study of Mus musculus with 6 samples.

Results

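The macrophage marker genes examined here are C1qa, C1qb, C1qc, Csf1r, Adgre1, Lyz2, Tyrobp, Cd68, Fcer1g and Ptprc, chosen by name as general markers of macrophages and of white blood cells. All 10 were found in the deposited table, 1 entry each, among 47360 gene symbols. The RNA came from dental epithelial organoids (DEOs), grown in Matrigel from adult dental epithelial stem cells of the apical incisor buds of wild-type female C57BL/6J mice aged 9 weeks. Epithelium was freed by enzymes, passed through a strainer and seeded as single cells, and no sorting of cell types is described. All media held Wnt3a-conditioned medium at 50%, R-spondin1-conditioned medium at 5%, EGF at 100 µg per ml, Noggin at 200 µg per ml, N-acetylcysteine at 1 mM and Y27632 at 10 µM, all as labelled, and DEOs were collected after 14 days. The +N medium had nothing further, +ND had dibenzazepine (DBZ), a compound that blocks the cleavage activating Notch receptors, at 10 µM in the labels (the methods text has mmol per litre with the same figure), +NF had FGF10 at 100 µg per ml, and +NFD had both. Each medium has 1 library, so differences between media have no replicate check, and p-values are not given. Whether the libraries came from separate cultures or animals is not stated. Media with Jagged1 (+NJ, +NFJ) were not analysed here.

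Macrophages are phagocytes that live in nearly every tissue, tooth included, where they clear dead cells and debris. They depend on signalling by the CSF1 receptor, they read antibodies and many surface ligands through receptors that lean on small adaptor chains, TYROBP and the Fc receptor gamma chain, and they are a main source of the complement protein C1q. In a bulk library, fewer cells of a type and less RNA per cell cannot be told apart.

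Values are the authors' FPKM, fragments scaled to transcript length and to the mapped fragments of the library, so levels of different genes can be compared per length. Ratios between media are log2((FPKM + 1)/(FPKM + 1)), a scale that understates changes of low genes, and a gene is counted as changed at a 2-fold ratio if it reached an FPKM of 1 in the higher library. An approximate value for 1 fragment was read from the spacing of low FPKM in 8367 single-transcript genes. By this measure the depth, relative to +N, was 0.751 in +ND, 0.997 in +NF and 0.981 in +NFD. From this, the members rest on about 55 fragments (Ptprc in +NF) to about 19690 (Lyz2 in +N). The 95% intervals given with ratios are exact Clopper-Pearson intervals on these fragment numbers, for the ratio of FPKM without a pseudocount. They cover counting error only, not variation between cultures. A single gene, BC037156, took 15.6%, 5.17%, 12.0% and 5.71% of the summed FPKM (+N, +ND, +NF and +NFD). It was at 116578, 34772, 83486 and 38852 FPKM, media ordered as before, where the summed FPKM was 749264, 672304, 693408 and 680671. From +N to +ND and to +NFD it fell by more than the sum did. Rescaling to equal summed FPKM, used below, thus leans on this gene there.

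Transcripts of macrophage markers were present in all 4 libraries. No member reached a 2-fold ratio in any of the 5 comparisons made, of which 3 share the +N library. Genes at least 2-fold higher made up 5.88% of those compared in +ND vs +N, 2.76% in +NF vs +N, 5.85% in +NFD vs +N, 3.72% in +NFD vs +NF and 3.39% in +NFD vs +ND. Genes at least 2-fold lower made up 5.29%, 2.44%, 4.03%, 2.69% and 3.11% in the same order. The most regular feature was a low level with FGF10 alone. Of the 10 members, 9 had their lowest FPKM in +NF and the remaining one, Lyz2, had it in +NFD. Among all 13748 genes that reached an FPKM of 1 in some library, +NF was the lowest for 15.2%. Adgre1 differed by less than counting error between +NF and +N, and with each library rescaled to the same summed FPKM it was lowest in +N, leaving 8 members lowest in +NF. The highest FPKM was in +N for 6 members and in +ND for 4, or 5 each with equal sums, while +N was highest for 16.2% of all genes and +ND for 30.0%. Summed over all 10 members, FPKM was 759, 639, 541 and 502 (+N, +ND, +NF and +NFD), and without Lyz2 it was 231, 231, 168 and 214. The highest FPKM of a member was between 1.22 times its lowest (Tyrobp) and 2.65 times (Ptprc). For Ptprc and Cd68, at 2.23 times, these extremes were +ND and +NF, which differ in both factors and were not compared as a pair. On the scale with 1 added, the median of this span was 1.47 for the members and 1.47 for all genes, so their span was close to that of genes in general.

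**Figure D1:**
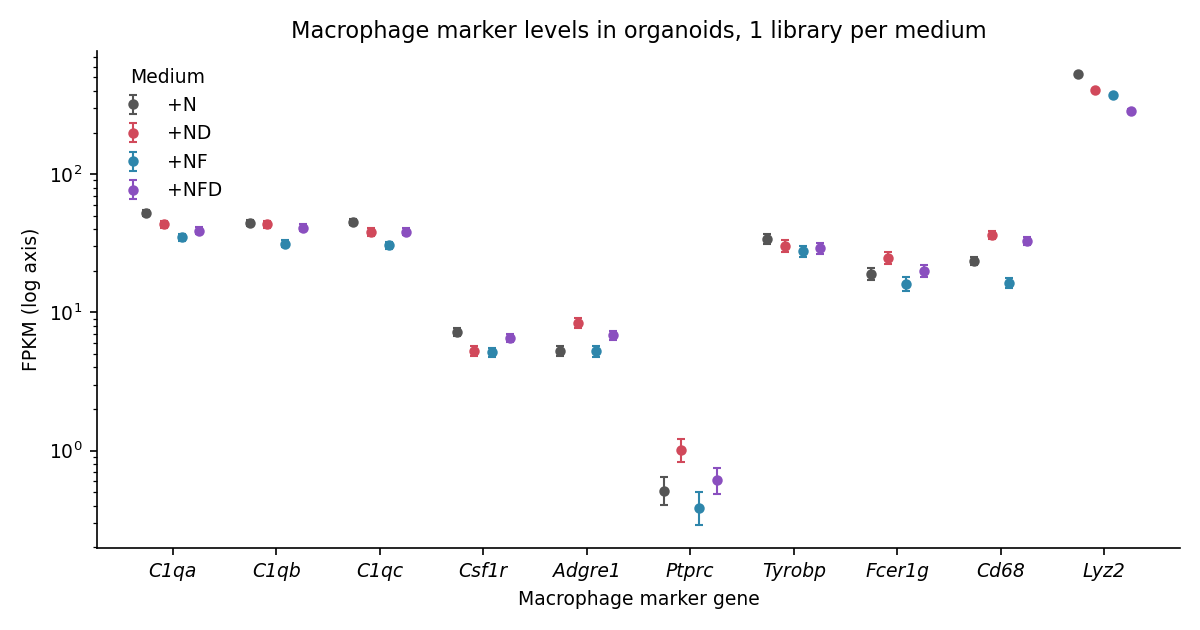
FPKM (log axis) of the 10 macrophage marker genes in the +N, +ND, +NF and +NFD libraries, 1 point per library, with bars for the 95% Poisson interval of the estimated fragment number. Levels run from 0.383 FPKM for Ptprc in +NF to 528 for Lyz2 in +N, and the +NF point is the lowest for every gene except Lyz2.

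The C1q chains lie next to each other on the minus strand of chromosome 4 of GRCm38, C1qb from 136880129 to 136886187, C1qc from 136889804 to 136893065 and C1qa from 136895917 to 136898803. Each encodes 1 of the chains that assemble into C1q, the molecule that opens the classical complement pathway. C1qa was at 52.0, 43.3, 34.9 and 38.9 FPKM (+N, +ND, +NF and +NFD). C1qb was at 44.5, 43.3, 31.4 and 41.0 FPKM, media ordered as before. C1qc was at 45.2, 38.2, 30.5 and 38.4 FPKM. All 3 chains were highest in +N and lowest in +NF, though with equal summed FPKM per library C1qb was highest in +ND. Within a library the chains were close to equal, with C1qa between 0.950 times (+NFD) and 1.17 times (+N) the level of C1qb, and C1qc between 0.882 times (+ND) and 1.02 times (+N).

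With FGF10 alone, in +NF relative to +N, the log2 ratio was -0.56 for C1qa (interval -0.69 to -0.46), -0.49 for C1qb (-0.62 to -0.38) and -0.55 for C1qc (-0.68 to -0.45). For each chain the difference exceeded counting error. In +NFD relative to +ND, where FGF10 was added in the presence of DBZ, these ratios were -0.15, -0.08 and 0.01, and only the interval of C1qa, -0.28 to -0.03, left out 0. For DBZ, the ratio in +ND relative to +N was -0.26 for C1qa (interval -0.38 to -0.15), -0.04 for C1qb (-0.16 to 0.08) and -0.24 for C1qc (-0.36 to -0.12), while in +NFD relative to +NF it was 0.15, 0.37 and 0.32. An interval below 0 in the former and above 0 in the latter was found for C1qa, C1qc and Csf1r, 3 of the 9 members compared in both, and for 8.55% of 11729 genes. The negative ratios in +ND depended on scaling. With equal summed FPKM per library they became -0.11, 0.12 and -0.08, and the intervals of C1qa and C1qc then held 0. With ratios centred on the median of all genes they were further below 0, at -0.36, -0.14 and -0.34, each with an interval below 0. Upper-quartile scaling gave -0.37, -0.15 and -0.35.

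Surface receptors were at lower levels. Csf1r, on the plus strand of chromosome 18 from 61105572 to 61132149, encodes the receptor for CSF1 and IL34 on which macrophages rely for survival. Its FPKM was 7.19, 5.28, 5.15 and 6.51 (+N, +ND, +NF and +NFD). Either factor alone went with a lower value than in +N, and with both the value lay between. The log2 ratio was -0.38 in +ND and -0.42 in +NF relative to +N, with intervals of -0.60 to -0.29 and -0.63 to -0.34. In +NFD it was 0.29 relative to +NF and 0.26 relative to +ND, with intervals of 0.19 to 0.49 and 0.14 to 0.46. A gene on the other strand, Hmgxb3, overlaps the annotated Csf1r locus and was at 9.02, 11.4, 10.0 and 11.7 FPKM (+N, +ND, +NF and +NFD). As the strand setting is not given in the sources used here, fragments in the overlap could count for either gene.

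Adgre1, on the plus strand of chromosome 17 from 57358686 to 57483529, encodes the adhesion receptor recognised by the classical F4/80 antibody against mouse macrophages. It was at 5.27, 8.38, 5.25 and 6.81 FPKM (+N, +ND, +NF and +NFD). The libraries with DBZ were both above those without it. DBZ gave a log2 ratio of 0.58 without FGF10 (interval 0.49 to 0.85) and 0.32 with it (0.20 to 0.55). FGF10 gave -0.0047 without DBZ, within counting error, and -0.26 with it (-0.46 to -0.13). The ratio of Adgre1 to Csf1r, both macrophage receptors, was 0.732, 1.59, 1.02 and 1.05 (+N, +ND, +NF and +NFD).

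Ptprc, on the minus strand of chromosome 1 from 138062861 to 138175708, encodes CD45, the tyrosine phosphatase carried by nearly all white blood cells. It was the lowest member by far, at 0.515, 1.01, 0.383 and 0.612 FPKM (+N, +ND, +NF and +NFD), or about 74, 109, 55 and 86 fragments. It reached an FPKM of 1 in +ND only, so it passed the filter in comparisons with that library alone, through the very value that is high there. The plain ratio of FPKM was 1.97 between +ND and +N, with a log2 interval of 0.53 to 1.42, and 1.60 between +NFD and +NF, with an interval of 0.16 to 1.18. On the log2(FPKM + 1) scale these ratios were 0.41 and 0.22.

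The adaptors Tyrobp and Fcer1g both carry an immunoreceptor activation motif (ITAM) in their cytoplasmic tail and pass signals from partner receptors to the kinase SYK. Tyrobp, on chromosome 7 from 30413760 to 30417585, was at 34.0, 30.4, 27.8 and 29.0 FPKM (+N, +ND, +NF and +NFD). It was the steadiest member, and its intervals held 0 for DBZ both without FGF10, with a log2 ratio of -0.16, and with it, at 0.06. Its ratio for FGF10 was -0.28 in +NF relative to +N (interval -0.47 to -0.11, which with equal summed FPKM became -0.36 to 0.00033) and -0.06 in +NFD relative to +ND (-0.26 to 0.13). Fcer1g, on chromosome 1 from 171229572 to 171234365, was at 19.1, 24.8, 16.1 and 20.1 FPKM in +N, +ND, +NF and +NFD. Unlike in Tyrobp, both DBZ libraries were above their counterparts, with log2 ratios of 0.37 and 0.30. Tyrobp was between 1.22 times (+ND) and 1.78 times (+N) the level of Fcer1g.

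Cd68, on the minus strand of chromosome 11 from 69664213 to 69666153, encodes a glycoprotein of late endosomes and lysosomes that is abundant in macrophages. Among the members it had the highest log2 ratio in +NFD vs +NF, with levels at 23.5, 36.2, 16.2 and 32.9 FPKM (+N, +ND, +NF and +NFD). The DBZ libraries were both above those without DBZ. The log2 ratio for DBZ was 0.60 without FGF10 (interval 0.49 to 0.76) and 0.98 with it (0.87 to 1.17), the latter just under the 2-fold limit and just over it, at 1.02, without a pseudocount. Of all genes compared between +NFD and +NF, 96.1% had a lower ratio than Cd68. For FGF10 the ratio was -0.51 without DBZ and -0.14 with it.

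Lyz2, on the minus strand of chromosome 10 from 117277334 to 117282274, encodes the lysozyme of macrophages and other myeloid cells. It was the most abundant member, at 528, 408, 373 and 288 FPKM (+N, +ND, +NF and +NFD). Each factor went with a lower level in both settings. DBZ gave a log2 ratio of -0.37 without FGF10 and -0.37 with it, and FGF10 gave -0.50 without DBZ and -0.50 with it, so that +NFD was 0.87 below +N on the log2 scale. Lyz2 was 22.4 times the level of Cd68 in +N and 8.76 times in +NFD. Its near-identical neighbour Lyz1, from 117287796 to 117292868, was at 4.34, 0.644, 2.05 and 0.753 FPKM (+N, +ND, +NF and +NFD), and the 2 genes may share fragments. With Lyz1 added, the ratios of Lyz2 moved by less than their counting intervals.

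**Figure D2:**
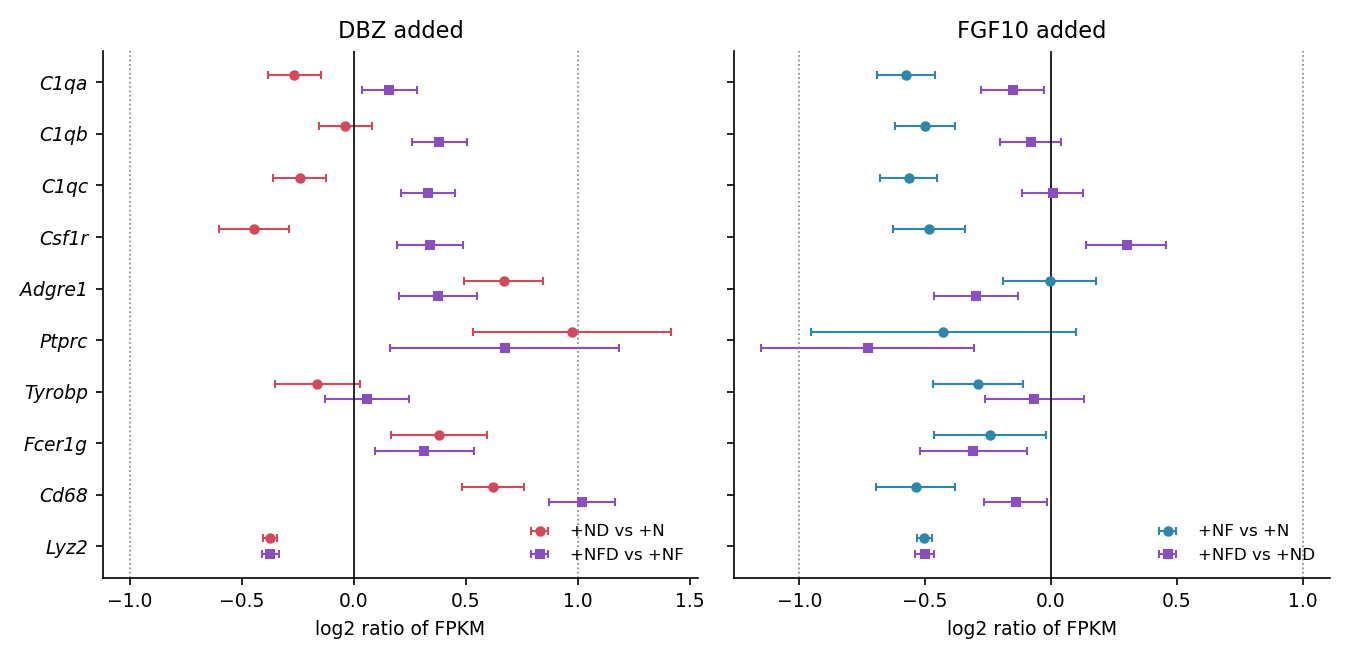
Log2 ratios of FPKM without a pseudocount (horizontal axis) for the 10 members (rows) when DBZ was added (left, +ND vs +N and +NFD vs +NF) or FGF10 was added (right, +NF vs +N and +NFD vs +ND). Bars are 95% counting intervals and dotted lines mark 2-fold. Cd68, Adgre1, Fcer1g and Ptprc are right of 0 for DBZ in both settings, and all points of +NF vs +N lie left of 0.

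Compared as a group, all 10 members were lower in +NF than in +N, by any size (Adgre1 turned to 0.09 with equal summed FPKM per library), and for 8 of them the interval lay below 0. Adgre1 and Ptprc were the exceptions. Of 11894 genes with 1 entry and a coding transcript that passed the filter, 23.0% had an interval below 0. With equal summed FPKM the intervals of Tyrobp and Fcer1g held 0 as well, which left 6 members below 0. Over the 9 that passed the filter the median log2 ratio was -0.49, and over all 10 it was -0.45, whereas the median of the 13090 genes compared was 0.12 and 34.3% of them were lower in +NF and 65.7% higher. Genes past 2-fold made up 5.19% of those compared, and 0 members did so. In +NFD relative to +ND, 8 members were lower and 2 higher, against 41.0% and 59.0% of 13293 genes, with a median of -0.14 against 0.09. There 6.50% of genes were past 2-fold. Ptprc, among the 8 lower, passed the filter only through its high value in +ND. A filter at an FPKM of 5, which drops Ptprc, also gave a median of -0.14. Lower levels with FGF10 in both settings, which share no library, were seen for 7 of the 9 members that passed the filter in both, and for 14.7% of the 12635 genes compared in both. Of these 7, C1qa, Lyz2, Cd68 and Fcer1g were lower beyond counting error in both settings, 4 of the 9, as were 8.85% of 11610 genes with such intervals, while Adgre1 was within it in +NF vs +N, and C1qb and Tyrobp were within it in +NFD vs +ND. Fibroblast markers, which are also carried by cells of the dental mesenchyme, differed in some of the same comparisons. Of 8 fibroblast markers compared, 7 were lower in +NF than in +N. In +NFD relative to +ND, all 9 compared were higher, with a median log2 ratio of 1.38. The summed FPKM of the 10 fibroblast markers was 256, 228, 160 and 589 (+N, +ND, +NF and +NFD). Their part in the result was not tested.

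For DBZ the members divided. In +ND relative to +N, 4 members were higher and 6 lower, with a median of -0.10 (0.06 with equal summed FPKM per library) against 0.10 for 13173 genes, of which 11.2% were past 2-fold, 58.2% higher and 41.8% lower. Ptprc, among the 4 higher, passed the filter only through its high value in +ND. A filter at an FPKM of 5, which drops Ptprc, gave a median of -0.16. In +NFD relative to +NF, 9 were higher and Lyz2 was lower. The median was 0.30 over the 9 that passed, and 0.29 over all 10, against 0.05 for 13349 genes. Of these genes, 6.41% were past 2-fold, 57.2% higher and 42.8% lower. All 9 fibroblast markers compared were also higher there, with a median of 1.96, and their part was not tested. Cd68, Adgre1 and Fcer1g were higher with DBZ in both settings, 3 of the 9 members that passed the filter in both, as were 38.3% of the 12774 genes compared in both. Ptprc was higher in both as well but did not pass in +NFD vs +NF. Between +NFD and +N, 4 members had a higher level in +NFD and 6 a lower one. Ptprc, among the 4, did not pass the filter, and relative to the median of all genes 2 members were higher and 8 lower. The median was -0.13 over 9 members (-0.00 with equal sums) against 0.18 for 13358 genes. Of these genes, 9.88% were past 2-fold, 69.1% higher and 30.9% lower. Here Lyz2 had the lowest ratio, -0.87, and Cd68 the highest, 0.46.

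Promoter sequences from RefSeq (GRCm38.p6) were matched for 6 of the 10 members. The 250 bases before the start are shown for C1qb and Cd68, which were both lower in +NF than in +N by more than counting error and parted in +ND, where Cd68 was higher and the interval of C1qb held 0. They are the members whose window holds no annotated UTR base. Capitals mark matches, on either strand, to 5 short motifs: GAGGAA, the core bound by the myeloid factor PU.1, TTNNGNAA for C/EBP factors, TGANTCA for AP-1, the E-box CACGTG and the TATA motif TATAAA. The C1qb window is chr4:136886201-136886450 and the Cd68 window chr11:69666171-69666420, both on the minus strand and written 5′ to 3′.
C1qb: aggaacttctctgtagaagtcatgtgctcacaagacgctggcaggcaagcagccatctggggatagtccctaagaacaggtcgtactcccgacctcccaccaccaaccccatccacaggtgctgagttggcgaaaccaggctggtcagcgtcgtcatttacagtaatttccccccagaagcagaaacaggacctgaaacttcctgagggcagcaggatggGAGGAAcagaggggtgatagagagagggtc
Cd68: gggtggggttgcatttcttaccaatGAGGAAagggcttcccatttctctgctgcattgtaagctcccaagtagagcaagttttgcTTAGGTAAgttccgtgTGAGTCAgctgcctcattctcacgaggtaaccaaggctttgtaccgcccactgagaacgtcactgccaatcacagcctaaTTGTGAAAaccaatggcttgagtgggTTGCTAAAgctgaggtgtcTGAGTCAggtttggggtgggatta
The C1qb window held a single match, to the PU.1 core, which began 30 bases before the start. The Cd68 window held the PU.1 core once, at 225 bases, C/EBP matches at 165, 69 and 43 bases and AP-1 matches at 149 and 24 bases before the start. No matches overlapped. Of 32851 windows of this length, 23.3% held the PU.1 core, 36.8% a C/EBP match, 6.75% an AP-1 match, 6.02% the E-box and 12.4% the TATA motif. A match describes letters only, and binding was not measured.

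Other genes of macrophages were measured from lists written from general knowledge. Of 30 further macrophage and monocyte genes, the number that reached an FPKM of 1 was 20, 21, 22 and 21 (+N, +ND, +NF and +NFD). By mean log2(FPKM + 1) over the libraries, the highest were Cbr2, Stab1, Mmp12 and Pf4. Cbr2, a carbonyl reductase found in some resident macrophages and in other tissues, was at 1123, 1041, 776 and 790 FPKM (+N, +ND, +NF and +NFD), and thus above every member. Stab1, a scavenger receptor, was at 95.5 FPKM in +N and between 49.3 and 55.0 in the other media. Mmp12, the macrophage elastase, was at 30.2, 28.5 and 28.6 FPKM in +N, +ND and +NF and at 48.0 in +NFD. In +ND vs +N, 2 of 22 genes were past 2-fold higher and 2 lower, where 11.2% of all genes were past it in either direction. In +NF vs +N it was 1 of 23 higher and 0 lower, against 5.19%, and in +NFD vs +N 1 of 21 higher and 2 lower, against 9.88%. In +NFD vs +NF it was 0 higher and 1 of 23 lower, against 6.41%, and in +NFD vs +ND 0 of 22 in either direction, against 6.50%.

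Other genes that macrophages express went both ways with DBZ. Over 87 genes of the macrophage, transcription factor, ITAM and phagocytic receptor lists, 50 could be compared in both DBZ settings. Of these, 22 were lower in both and 16 higher in both, with a median log2 ratio of -0.11 without FGF10 and 0.01 with it, where 23.0% of all genes were lower in both and 38.3% higher. None of the 50 was at least 2-fold higher in both, and 4 were at least 2-fold lower in both, namely Pf4, Clec4n, Msr1 and Marco. These, and Aif1 and Ms4a7, were picked out after their values were seen, and among all genes 2.13% were at least 2-fold lower in both and 1.84% higher. The chemokine gene Pf4 was at 92.9, 11.8, 56.3 and 14.1 FPKM (+N, +ND, +NF and +NFD). Msr1, a scavenger receptor, was at 8.65, 2.35, 6.97 and 1.79 FPKM, media ordered as before. Marco, another scavenger receptor, was at 7.05, 1.35, 8.26 and 0.396 FPKM. Clec4n, which encodes a lectin receptor that signals through the Fc receptor gamma chain, was at 6.53 FPKM in +N and 5.55 in +NF, with log2 ratios for DBZ of -1.52 and -1.08. For each of these 4 genes the libraries with DBZ were both below those without it, while C1qa, Csf1r and Tyrobp had no such order. Aif1, which encodes IBA1, was also lower with DBZ, at 48.7, 10.9, 42.7 and 22.4 FPKM (+N, +ND, +NF and +NFD). In the opposite direction, Ms4a7 was at 1.86, 7.58, 1.73 and 4.21 FPKM (+N, +ND, +NF and +NFD). With FGF10, 48 of the 87 genes could be compared in both settings, with 14 lower in both, 8 higher in both and 0 past 2-fold in both. Among 12635 genes compared in both, 14.7% were lower in both and 40.5% higher. At least 2-fold lower in both were 0.926% of all genes, and 0.863% were higher. The median log2 ratio of the 48 was -0.13 without DBZ and 0.02 with it. The members were at -0.49 and -0.14. Several of these genes are also expressed outside macrophages, and the cell of origin was not measured.

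**Figure D3:**
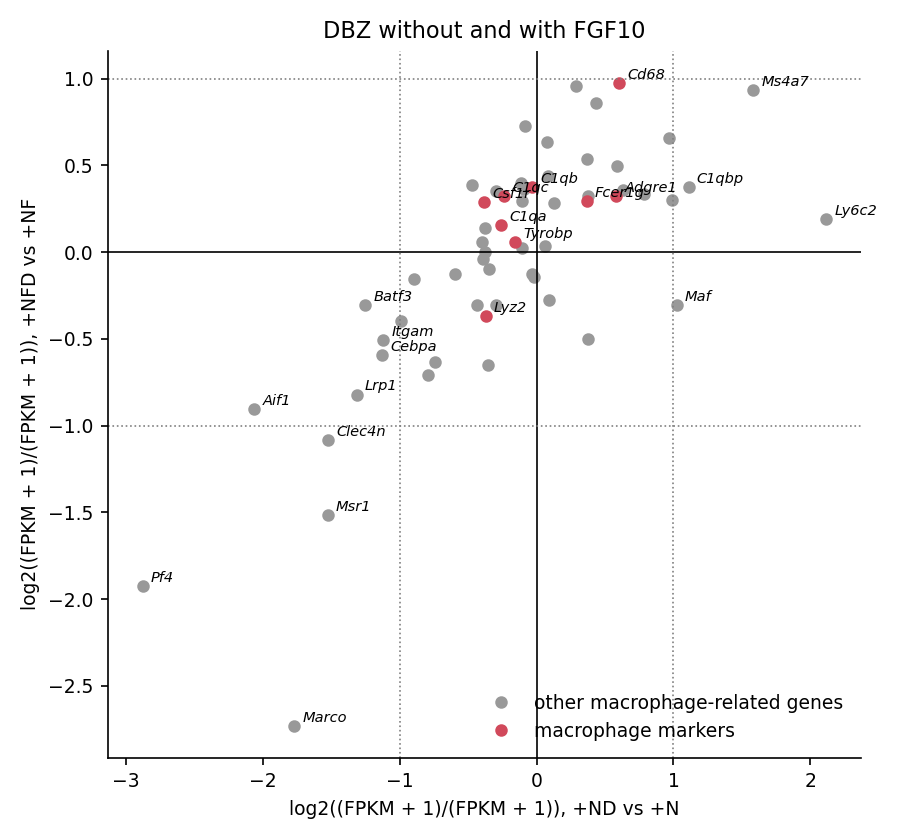
Log2((FPKM + 1)/(FPKM + 1)) for DBZ without FGF10 (horizontal axis) and with FGF10 (vertical axis), for the 9 members that passed the filter in both (red) and the 50 other macrophage-related genes (grey), with dotted lines at 2-fold. The members sit within 2-fold in both, and Pf4, Clec4n, Msr1 and Marco lie past 2-fold lower in both.

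Among partner receptors of Tyrobp and Fcer1g, 6 of 18 reached an FPKM of 1 in +N, and Fcgr3, Trem2, Clec4n and Clec4d were the highest. Fcgr3, a receptor for IgG that needs Fcer1g, was at 12.9, 9.68, 9.22 and 10.2 FPKM (+N, +ND, +NF and +NFD). Trem2, which pairs with Tyrobp, was at 5.98, 6.37, 3.68 and 6.27 FPKM. Fcgr3 and Trem2 were lowest in +NF, as were Tyrobp and Fcer1g, whereas Clec4n was lowest in +ND, at 1.62 FPKM, and Clec4d in +NFD, at 2.81 FPKM against 3.71 in +NF. All 6 receptors that passed the filter between +NF and +N were lower in +NF, with a median log2 ratio of -0.41 and none past 2-fold. Of all genes compared there, 34.3% were lower and 5.19% past 2-fold. Of the 6, Clec5a (1.09 FPKM in +N, 0.618 in +NF) and Fcgr1 (1.78 and 0.799) passed only through their higher value in +N. The count is thus partly set by the filter. Receptors under an FPKM of 1 in both libraries went both ways, with Fcgr4 higher and Trem1 lower in +NF. Of 14 kinases and adaptors that act below the ITAM, 7 passed in that comparison, 3 of them lower in +NF, and the median was 0.01. Syk itself was at 1.64, 1.03, 1.48 and 1.48 FPKM (+N, +ND, +NF and +NFD). Spi1, which encodes PU.1, was at 3.25, 2.25, 2.94 and 2.84 FPKM, media ordered as before.

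The genes of both ligands of the CSF1 receptor were measured. Il34, which is made by epithelial cells such as keratinocytes, was at 30.2, 7.10, 57.3 and 44.9 FPKM (+N, +ND, +NF and +NFD). Csf1 was at 2.77, 3.27, 4.59 and 4.64 FPKM. Both were higher in +NF than in +N, where Csf1r was lower. Like Csf1r, Il34 was lower in +ND than in +N, and both ligands were higher in +NFD than in +ND. Of the complement genes other than C1q, 10 of 15 reached an FPKM of 1 in +N. C1s1, a protease of the C1 complex, was at 18.6, 76.3, 38.0 and 39.4 FPKM (+N, +ND, +NF and +NFD), and Serping1, the inhibitor of that complex, at 14.0, 30.4, 6.80 and 55.4. Both spanned a wider range than the C1q chains. Lysosomal genes, the class to which Cd68 belongs, were all above an FPKM of 1, and with DBZ 14 of 18 were lower in +ND than in +N, against 41.8% of all genes, and 14 of 18 lower in +NFD than in +NF, against 42.8%. With FGF10, 15 of 18 were higher in +NF than in +N, against 65.7% of all genes, and 15 of 18 higher in +NFD than in +ND, against 59.0%. Cd68 had the opposite sign in all of these comparisons. The highest was Ctsd, at 1527, 1097, 1511 and 1589 FPKM (+N, +ND, +NF and +NFD).

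Markers of other blood cells were mostly under an FPKM of 1. Of 14 T and NK cell markers, 10 were listed at 0 in all 4 libraries, Cd3e among them, for which the upper limit that a count of 0 allows, 3 fragments, is between 0.0415 FPKM in +N and 0.0553 in +ND. Trbc2 was the exception, at 13.3, 12.5, 5.26 and 6.08 FPKM (+N, +ND, +NF and +NFD). None of 8 neutrophil markers, 7 mast cell markers and 6 erythroid markers reached an FPKM of 1 in any library. Of 7 B cell markers, Ighm alone did so, at 7.93, 2.89, 3.22 and 0.278 FPKM (+N, +ND, +NF and +NFD), while Ms4a1 was listed at 0 in all. Among 12 dendritic and Langerhans cell markers, 3 reached an FPKM of 1 in +N. Flt3, Clec9a and Cd209a were listed at 0 in all libraries, and Cd207 was at most 0.0634 FPKM. H2-Ab1 was at 85.3, 35.9, 50.4 and 39.1 FPKM (+N, +ND, +NF and +NFD), Cd74 at 5.61, 0.441, 1.31 and 0.867 FPKM and H2-Eb1, in another order, at 1.55, 1.33, 2.27 and 2.49 FPKM. In contrast, H2-Aa was at 0.680 FPKM in +N and at most 0.0296 in the other media, and Ciita was at most 0.0218 FPKM. Of 9 osteoclast markers, 4 reached an FPKM of 1 and Ocstamp was listed at 0 in all libraries. Mmp9, the highest, was at 176, 84.0, 395 and 182 FPKM (+N, +ND, +NF and +NFD). Acp5 was at 37.9, 17.6, 19.7 and 11.9 FPKM, Nfatc1 at 4.87, 7.56, 6.52 and 8.73 FPKM and Ctsk at 2.24, 2.83, 2.29 and 5.77 FPKM, so these markers did not share an order. Egfl7 was the only 1 of 8 endothelial markers above an FPKM of 1. The keratin gene Krt5, at 6582, 4984, 6535 and 6177 FPKM (+N, +ND, +NF and +NFD), exceeded every member, and all 8 epithelial markers reached an FPKM of 1 in each library.

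**Figure D4:**
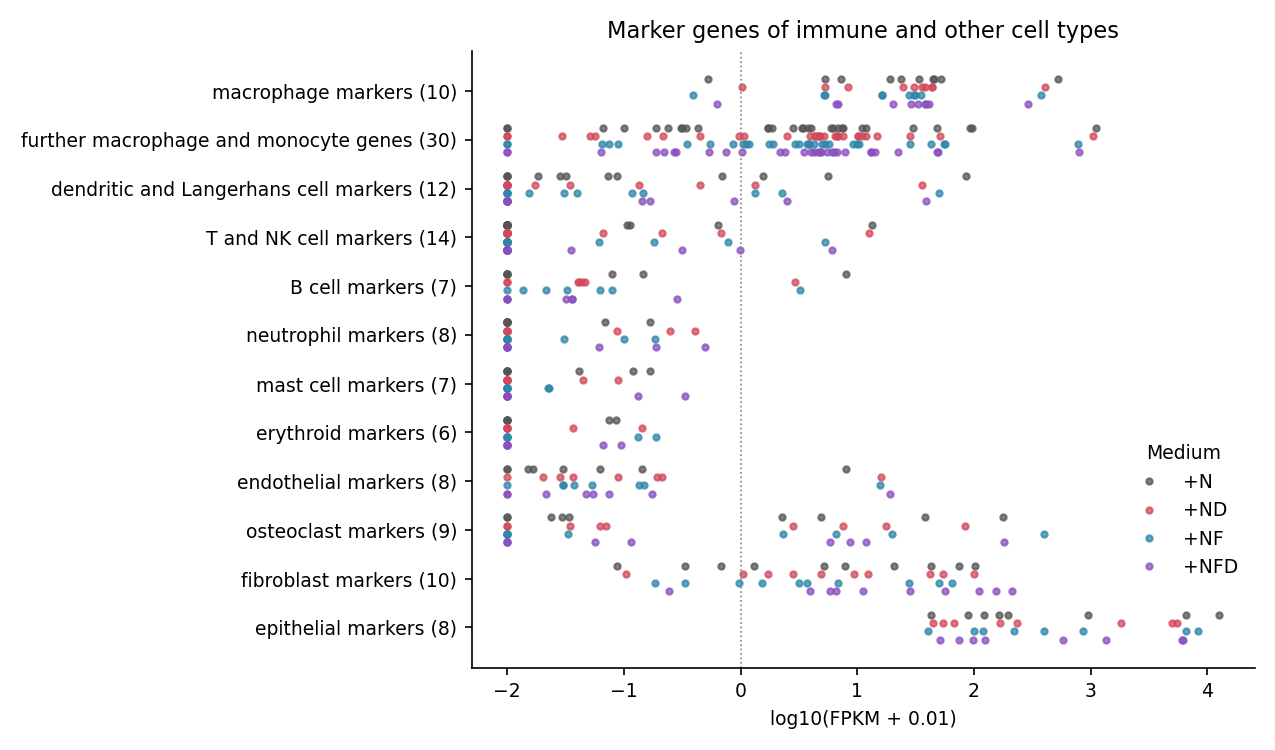
Log10(FPKM + 0.01) of marker genes (points) by list (rows, with the number of genes measured) and library (colour), with a dotted line at an FPKM of 1. Macrophage markers lie right of the line except Ptprc outside +ND, whereas 0 of the 8 neutrophil, 7 mast cell and 6 erythroid markers do.

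Over the 4 libraries, the mean profile of the members, as log2(FPKM + 1) centred for each gene, was 0.10, 0.16, -0.26 and 0.0017 (+N, +ND, +NF and +NFD). Among 10347 other genes that reached an FPKM of 5 in the highest library and had a transcript of 300 nt or more, the 8 nearest to it by Euclidean distance were Selk, Pard6g, Blzf1, Ube2r2, Atp6v1b2, Fam83f, Commd6 and Map7d1. Selk, at a distance of 0.0269, was at 87.2, 90.9, 68.5 and 83.1 FPKM (+N, +ND, +NF and +NFD). None of these 8 is in a macrophage list used here. Of the members, C1qb was closest to their mean, at 0.101, with 14 other genes nearer than it, and Cd68 was farthest, at 0.639, with 6499 nearer. A profile over 4 libraries is shared by many genes, and the likeness is a description only.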

How the data were processed

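RNA-seq of DEOs grown for 14 days was labelled for 6 media, and 4 were analysed here, 1 library each. The authors deposited FPKM from Cufflinks. Their processing notes name Trim Galore 0.6.5 and FastQC 0.11.9 for reads, and TopHat2 2.1.1 for alignment, on GRCm38. Annotation release, strand setting and Cufflinks options are not given in the sources used here. Since FPKM is relative to all mapped fragments, a gene with a large share lowers the others.

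Entries of a symbol were summed. Ratios used a pseudocount of 1, and genes had to reach an FPKM of 1 in the higher library. With 1 library per medium no test was made. Fragment numbers were estimated from the smallest steps of FPKM times length (GENCODE M21, GRCm38) and the longest coding transcript, so they are approximate. A count of 0 allows up to 3 fragments. All 10 members were named whatever their values. The 8 genes nearest in profile and list genes among the 4 highest were eligible for naming. Others, such as Syk, Spi1 and defining markers listed at 0, were chosen after their values were seen. The members and lists were chosen with earlier results of these data known. The computation was tested on simulated data. Alternatives were 2 pseudocounts, 2 filters, 3 scalings, the highest entry per symbol, a smaller panel and Lyz1 added to Lyz2. Tools were scipy 1.17.1, pandas 2.3.3, numpy 2.4.6 and Python 3.11.15, with matplotlib 3.10.9 for plots.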

Additional observations from a re-analysis of the deposited data

Results flagged for a closer look

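For 3 members, DBZ went with a lower level without FGF10 and a higher level with it, each beyond counting error on the authors' scaling, as did 8.55% of 11729 genes. With 1 library per medium the difference between the settings was not tested. The change of the log2 ratio, +NFD vs +NF minus +ND vs +N, was 0.41 for C1qa, 0.56 for C1qc and 0.67 for Csf1r. For Csf1r the ratio for FGF10 also changed sign, from -0.42 without DBZ to 0.26 with it. This is again a change of 0.67, since both differences are made from the same 4 values. For FGF10 such a sign change beyond counting error was found for 1 of 9 members and for 9.35% of 11610 genes. With equal summed FPKM per library, chosen after seeing the data, the interval in +ND vs +N held 0 for C1qa (-0.23 to 0.0085) and for C1qc (-0.20 to 0.03). With ratios centred on the median of all genes, that of C1qa in +NFD vs +NF held 0 (-0.01 to 0.23). Csf1r kept opposite signs beyond counting error under both scalings, for DBZ and for FGF10. C1qb had a change of 0.41, but on the authors' scaling its ratio in +ND vs +N lay within counting error. With centred ratios its intervals were -0.26 to -0.02 in +ND vs +N and 0.21 to 0.46 in +NFD vs +NF, of opposite sign, and with equal sums they were 0.00055 to 0.24 and 0.29 to 0.53, of the same sign.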

How the results depend on the processing

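No paired analysis was possible because each medium has 1 library and no test was made. The count of members past 2-fold, 0 in every comparison, became 1 higher in +NFD vs +NF with a pseudocount of 0.1, with no pseudocount and, in an alternative chosen after seeing the data, with FPKM rescaled to the same sum in each library. In each case the gene was Cd68. With ratios centred on their median it became 1 lower in +NFD vs +N, for Lyz2. The median log2 ratio of the members moved past its counting interval from -0.10 to -0.27 in +ND vs +N with upper-quartile scaling, under which Ptprc no longer passed the filter (a filter at an FPKM of 5, which also drops Ptprc, gave -0.16), and from -0.13 to -0.30 in +NFD vs +N with centred ratios. Equal summed FPKM, which raised ratios in +ND vs +N by 0.16, moved the same medians the other way, to 0.06 and -0.00, so the sign in +ND vs +N depended on scaling and the median in +NFD vs +N went to about 0. In both comparisons BC037156 fell from +N by more than the summed FPKM did, so this rescaling leans on that gene. No other count or median, among them the median of -0.49 in +NF vs +N, moved beyond its counting interval. Signs near 0 depended on scaling. With equal summed FPKM, C1qb went from -0.04 to 0.12 in +ND vs +N and from -0.12 to 0.02 in +NFD vs +N, and Adgre1 to 0.09 in +NF vs +N. Fcer1g in +NFD vs +N went from 0.07 to -0.04 under upper-quartile scaling and to -0.11 when ratios were centred, and C1qc in +NFD vs +ND from 0.01 to -0.09 with centred ratios and -0.01 with equal sums. Relative to the median of all genes, 0 members were higher and 10 lower in +NF vs +N. Depth limits Ptprc most, with about 55 to 109 fragments per library.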
